A study of Caenorhabditis elegans with 2 samples.

Results

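The 340 regions described here were the distal ELT-2 peaks of whole Caenorhabditis elegans larvae, those whose summit lay more than 5000 bp from every annotated transcript 5′ end of a protein-coding gene (a coding start). They were chosen by position alone, from the deposited list of peaks on the ce11 genome that passed the irreproducible discovery rate (IDR) filter, which keeps peaks whose ranks recur between replicates. A summit is the base of highest enrichment within a peak. The list held 9198 peaks, of which 17 were mitochondrial and were left out. The 340 distal summits made up 3.70% of the 9181 nuclear summits (95% exact interval 3.33 to 4.11%), which is the rule's own share of all nuclear summits (3.7%) and is given as a description. Intervals here and below cover counting error only. No filter on low values was applied, so all 340 entered every count.

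The study was a chromatin immunoprecipitation sequencing (ChIP-seq) experiment with 1 group of 2 biological replicates and no second condition. The animals were hermaphrodites of strain OP56, genotype unc-119(ed3) III; wgIs56, collected as L3 larvae 40 h after their growth had been synchronized as starved L1 larvae following bleaching. All carried the transgene wgIs56, whose product is ELT-2 fused to a C-terminal GFP-FLAG tag, and chromatin was recovered with an antibody to GFP. The values therefore describe a tagged protein in 1 transgenic line and in whole animals, of which the intestine is only one tissue, and they cannot tell fewer bound cells from less binding per cell. No source used here states the read depths.

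ELT-2 is the GATA-type zinc finger factor that maintains the differentiated intestine of C. elegans. Its core recognition word is TGATAA, which reads TTATCA on the other strand. Worm genes lie close together, and most known regulatory sequence lies near the start of the gene it serves, so the distal summits are outside the usual promoter region. Annotated 5′ ends of worm genes often mark the place where a spliced leader is joined to the RNA rather than the place where transcription begins. Long intergenic stretches and long introns of this genome also hold genes for microRNAs (miRNAs), tRNAs, small nucleolar RNAs (snoRNAs), Piwi-interacting RNAs (piRNAs) and other non-coding RNAs, and the choice of regions made no use of their starts.

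Sequences of 9 distal summits are given with 60 bp on either side, on the plus strand of ce11, which is the WBcel235 assembly, as RefSeq holds it. Capitals mark the core word on either strand. The first 4 belong to the 8 strongest distal peaks that could be shown and have the core word close to the summit.

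Y37A1A.2 at chrIV:13919355-13919475: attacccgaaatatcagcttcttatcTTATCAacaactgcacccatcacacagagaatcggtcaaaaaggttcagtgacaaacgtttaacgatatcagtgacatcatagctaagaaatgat

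asp-13 at chrV:8651448-8651568: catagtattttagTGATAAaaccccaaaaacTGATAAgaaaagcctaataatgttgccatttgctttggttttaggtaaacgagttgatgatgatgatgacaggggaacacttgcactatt

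pkg-2 intron at chrIV:8527718-8527838: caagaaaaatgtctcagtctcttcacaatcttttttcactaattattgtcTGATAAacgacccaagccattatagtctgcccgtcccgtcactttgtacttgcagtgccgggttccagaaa

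T23E1.1 at chrIV:3158324-3158444: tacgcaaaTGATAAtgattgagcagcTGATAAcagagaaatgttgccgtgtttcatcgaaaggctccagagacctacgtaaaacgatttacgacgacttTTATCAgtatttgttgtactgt

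The next is the summit farthest from any coding start, in the outermost part of the X chromosome. It is followed by the weaker of both distal summits upstream of dve-1, a gene of an intestinal homeodomain protein, shown for its 3 core words.

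Y73B3A.1 at chrX:11301-11421: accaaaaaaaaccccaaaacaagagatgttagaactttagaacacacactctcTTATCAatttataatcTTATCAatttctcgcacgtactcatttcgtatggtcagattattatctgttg

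dve-1 at chrX:439211-439331: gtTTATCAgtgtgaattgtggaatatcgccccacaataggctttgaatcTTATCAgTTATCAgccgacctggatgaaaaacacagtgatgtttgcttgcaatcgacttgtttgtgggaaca

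The last 3 stand for other settings, namely the strongest summit beside a miRNA gene (mir-239b), a strong summit with no TGATAA within 100 bp (nearest to taf-3), and the strongest summit within 200 bp of a tRNA start, in an intron of him-4. The summits at dve-1, mir-239b and the tRNA were picked after their values were seen.

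mir-239b at chrX:11791681-11791801: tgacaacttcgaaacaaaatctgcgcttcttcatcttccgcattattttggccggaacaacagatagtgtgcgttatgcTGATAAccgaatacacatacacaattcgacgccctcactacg

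taf-3 at chrX:16349128-16349248: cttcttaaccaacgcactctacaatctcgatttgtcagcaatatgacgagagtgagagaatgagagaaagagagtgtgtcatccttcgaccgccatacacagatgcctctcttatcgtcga

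him-4 intron at chrX:9743649-9743769: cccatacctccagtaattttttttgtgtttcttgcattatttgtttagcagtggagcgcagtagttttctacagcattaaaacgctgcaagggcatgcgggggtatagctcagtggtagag

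Distal summits were sparse for the room they had. Bases more than 5000 bp from every coding start made up 8.78% of the nuclear genome, or 8.81 of 100.3 Mb, and held 38.6 summits per Mb, against 96.7 summits per Mb in the rest of the genome. The density was lower with distance, at 187 summits per Mb within 500 bp of a coding start, 47.0 at 4000 to 5000 bp, 45.8 at 5000 to 6000 bp, 31.9 at 7500 to 10000 bp, 27.02 at 10000 to 15000 bp and 28.1 beyond that. No step stood at the 5000 bp boundary itself.

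Most members were only moderately far out. Their distance to the nearest coding start had a median of 6345 bp (quartiles 5594 and 7904 bp) and ran up to 35572 bp. Of the 340, 135 lay at 5000 to 6000 bp, 106 at 6000 to 7500 bp, 60 at 7500 to 10000 bp and 39 beyond 10000 bp. Just inside the boundary were summits nearest to ptr-21 (5024 bp, signal 217.8), bcat-1 (5041 bp, signal 2768) and kcc-2 (5042 bp, signal 975.4). Just outside it were summits nearest to K02B2.6 (4991 bp, signal 910.8), dmd-6 (4984 bp, signal 324.2) and E01G4.6 (4975 bp, signal 114.9).

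**Figure D1:**
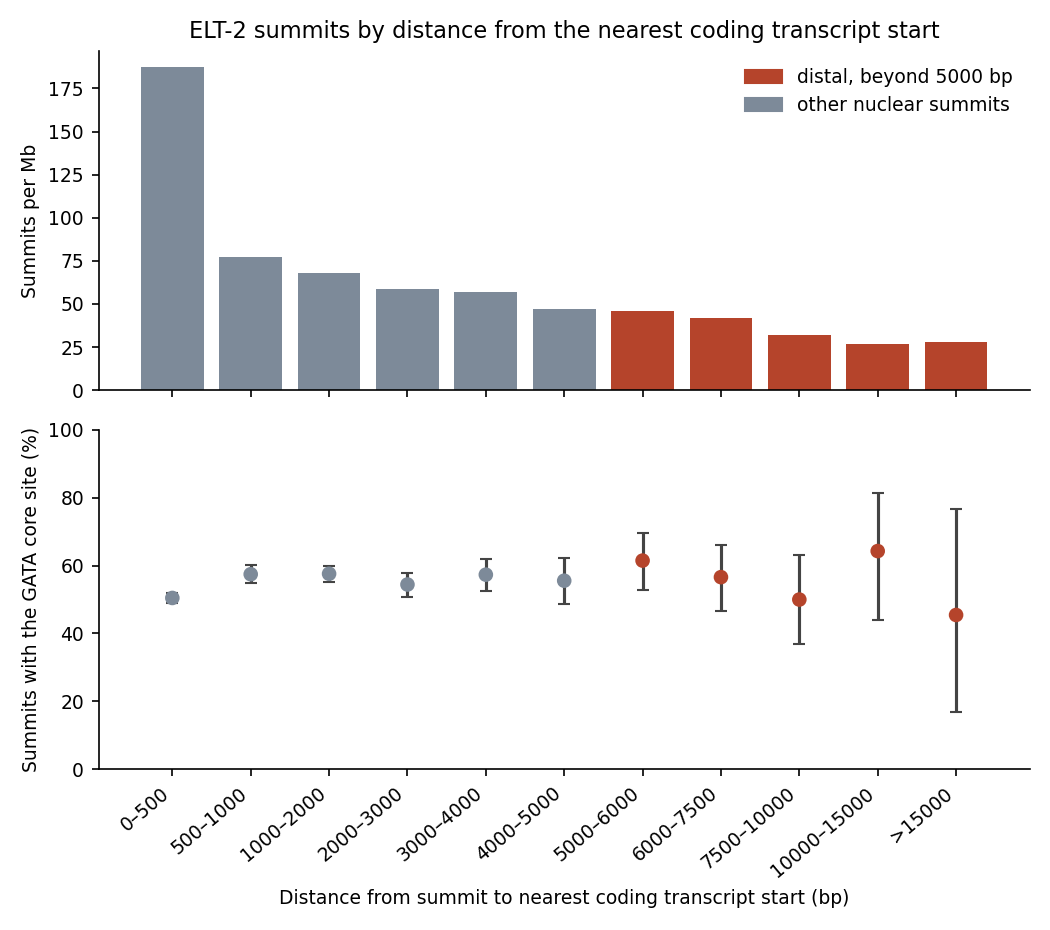
Density of ELT-2 summits (upper panel, summits per Mb of genome in each distance class) and share of summits with the GATA core site TGATAA within 100 bp (lower panel, %, bars are 95% exact intervals) by distance from the nearest coding transcript start in bp, distal classes in red and other classes in grey. Density is 45.8 summits per Mb or less in the distal classes and 187 in the class nearest to coding starts, while the share with the site stays between 45.5 and 64.3% in the 5 distal classes.

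The X chromosome held the most distal summits, 105 of its 1967 nuclear summits (5.34%, interval 4.39 to 6.43%) and 58.8 per Mb of sequence beyond 5000 bp. The lowest share was on V with 41 of 1777 (2.31%, interval 1.66 to 3.12%), and the lowest density was on I with 25.5 per Mb from 37 summits. Chromosomes II, III and IV had 47, 54 and 56 distal summits, at 48.7, 36.5 and 27.9 per Mb. X was also densest in other summits, with 116.9 per Mb of sequence within 5000 bp, against 85.3 (IV) to 104.6 (II) on the autosomes. The distal density was 0.503 times the other density on X, and from 0.298 (I) to 0.466 (II) times on the autosomes. Of the 340, 174 (51.2%, interval 45.7 to 56.6%) lay in the middle part of their chromosome, set at 50% of its length, against 61.1% of the other summits. Of the bases beyond 5000 bp 36.1% were there, so the density of distal summits was 54.7 per Mb in the middle parts and 29.5 per Mb outside them. Other summits were denser in the middle parts too, with 115.1 per Mb of sequence within 5000 bp there and 77.2 per Mb outside.

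By annotation, 265 distal summits (77.9%) were between coding genes, 67 (19.7%, interval 15.6 to 24.3%) in introns and 8 (2.35%, interval 1.02 to 4.58%) in exons. The corresponding densities were 51.5, 28.7 and 6.01 summits per Mb of distal sequence of each kind. Exons made up 15.1% of distal bases and introns 26.5%. Among other nuclear summits 62.2% were intergenic, 24.4% intronic and 13.4% exonic. Among intergenic members, 136 lay between tandem genes, 93 between divergent genes and 33 between convergent genes, and 3 lay outside the outermost gene of a chromosome. Relative to the nearest coding start, 199 members (58.5%, interval 53.1 to 63.8%) were upstream of it, against 70.6% of other summits and 43.6% of distal bases.

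Within the IDR-passing list the distal peaks were about as strong as the others. Signal, the authors' own enrichment value of each peak in the units of their peak caller, had a median of 215.5 in distal peaks (quartiles 124 and 430, range 75.2 to 4113) and 202.9 in the other nuclear peaks, a ratio of 1.06. Replicate signals were compared only for IDR-passing peaks with a summit within 100 bp in that replicate's list, 331 distal peaks for each replicate. Their distal medians were 92.5 in replicate 1 and 132.3 in replicate 2, against 86.2 and 120.2 for other such peaks. Over all peaks of each replicate list, without the IDR filter, the distal median was instead below that of other peaks. The strongest 100 peaks of the IDR-passing list had 98 nuclear summits, of which 8 were distal (8.16%, interval 3.59 to 15.5%). In the strongest 1000 the count was 42 of 992 (4.23%, interval 3.07 to 5.68%).

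Both replicates recorded nearly all distal peaks. With a summit within 100 bp counted as a match, 322 of 340 (94.7%, interval 91.8 to 96.8%) were in both replicate lists, 331 were in each single list and 0 were in neither. The background over all nuclear summits was 96.4%. The IDR filter had already used both replicates, so this is a description. Across the 322 peaks the replicate signals had a Spearman rho of 0.929, and both libraries came from the same strain and stage. Signal in replicate 2 was a median of 1.36 times that in replicate 1. The strongest of the 18 peaks matched in 1 list alone, nearest to the kinase gene kin-9 (named after its values were seen), ranked 215th of the 340 with a signal of 155.7.

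**Figure D2:**
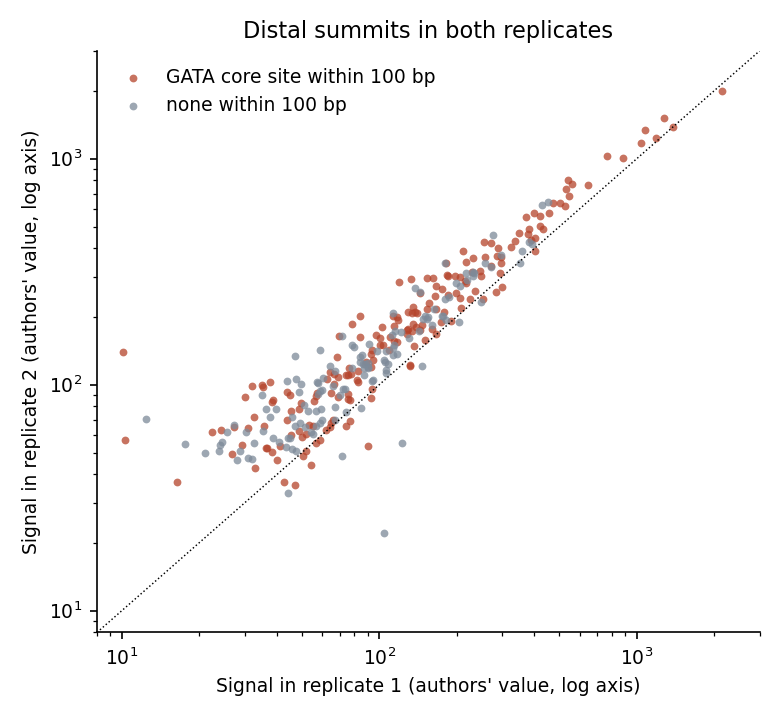
Signal of distal ELT-2 peaks in replicate 1 (horizontal) and replicate 2 (vertical), both on log axes in the authors' peak units, for the 322 peaks with a summit in both replicate lists, with peaks holding TGATAA within 100 bp of the summit in red and those without in grey. The points follow 1 band with a rho of 0.929, mostly above the dotted line of equal values.

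The core word TGATAA was present at most of these summits (196 of 340 within 100 bp, 57.6%, interval 52.2 to 63.0%), where the background over all nuclear summits was 53.9%. Windows of the same width centred 500 bp away held it in 62 of 340 cases (18.2%). The paired difference was 39.4 percentage points (95% interval 32.6 to 46.3). In 164 members the word was at the summit alone and in 30 at the flank alone. Among all windows of this width centred beyond 5000 bp, 15.4% held the word.

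The distal share was 3.93 points above the 53.7% of other nuclear summits, a difference within counting error (interval −1.48 to 9.17). The mean number of sites was 0.947 at distal and 0.855 at other summits. Of the 340, 92 (27.1%) had at least 2 sites, against 24.7% of other summits, and 25 (7.35%) had at least 3, against 5.99% of other summits. The most was 4, at summits that included those nearest to T23E1.1, to the nuclear receptor gene nhr-41 and to mup-4. Around distal summits the word was densest at 7.06 sites per kb in a bin 30 bp from the summit.

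**Figure D3:**
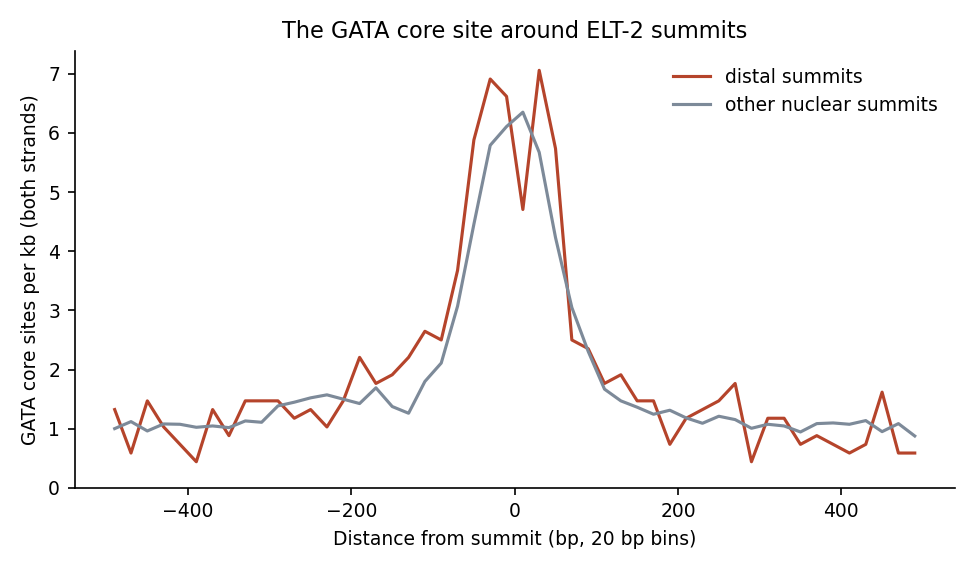
Density of the GATA core site TGATAA (sites per kb, both strands, 20 bp bins) against distance from the summit in bp, for distal summits in red and other nuclear summits in grey. Both curves rise around the summit, to 7.06 sites per kb for distal and 6.35 for other summits.

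Longer words that contain TGATAA were also more frequent at distal summits than beside them. TGATAAG was at 32.9% of the summits and at 11 flanks, and ACTGATAA at 64 summits (18.8%) and 7 flanks. At least one of 4 GATA words, which were TGATAA itself, its variant AGATAA, the further variant AGATAG and the last variant TGATAG, was at 253 summits (74.4%) and at 135 flanks. For those 4 words the difference from other summits was 5.00 points (interval 0.0118 to 9.45). The forkhead word GTAAACA was at 13 summits and 14 flanks. The E-box CACGTG was at 27 summits and 13 flanks, and the repeat GAGAGAGA at 28 summits and 5 flanks. At other nuclear summits TGATAAG was present in 29.9% of cases and ACTGATAA at a share 2.82 points below the distal one. The distal shares of the forkhead word, the E-box and the repeat were 3.82, 7.94 and 8.24%, against 5.12, 7.51 and 6.39% at other summits. For each of these 5 words the interval of the difference between distal and other summits included 0. All words were searched on both strands, and in all windows of this width beyond 5000 bp they occurred in 2.69, 1.38, 31.8, 2.16, 2.86 and 1.32% of cases, in the order named. The windows around distal summits had a median GC content of 39.3%, against 37.8% for other summits and 35.01% over distal bases. Repeat-masked bases made up a median of 19.2% of the distal windows and 43.2% of all distal bases.

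Stronger distal peaks had the core word more often. In 5 bins of signal cut over all nuclear peaks, from weakest to strongest, the share of distal summits with TGATAA was 47.5, 50, 44.3, 66.2 and 75%. In other summits it was 35.4, 43.8, 51.2, 63.1 and 75.5%, and the interval of the difference included 0 in each bin. The 196 distal peaks with the word had a median signal of 281.7 and the 144 without it 186.8. Median GC content of the windows was 36.8% with the word and 43.8% without.

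The strongest distal peak of all was the third strongest in the whole list. It lay on IV between the divergent genes Y37A1A.2 and Y37A1A.4, 6386 bp upstream of Y37A1A.2 (peak IV:13919131-13919676). Its signal was 4113 in the IDR-passing list, 2132 in replicate 1 and 1990 in replicate 2, with 3 TGATAA sites within 100 bp. A piRNA start, 21ur-2469, lay 242 bp away. No IDR-passing summit lay in the promoter window of Y37A1A.2, set at 1000 bp upstream to 500 bp downstream of a coding start.

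Genes of enzymes were nearest to the next peaks. The peak upstream of bcat-1, which encodes a branched-chain amino acid aminotransferase, had a signal of 2768 (1275 in replicate 1 and 1506 in replicate 2) at X:12872439, with 1 core word near the edge of the window. Upstream of asp-13, a gene of the aspartyl protease family, a peak at 8315 bp had a signal of 2741 (1375 in replicate 1 and 1383 in replicate 2), and a second at 5250 bp had 1346 (540.2 and 807.8). Weaker members of the same divergent interval, at 10555 bp from asp-13 and at 10891 bp from ZC190.4, had signals of 493.3 and 702.3. One more, 5950 bp from ZC190.4, was near the weak end of the list with 79.5. All 5 held TGATAA, as did the single summit in the asp-13 promoter window, which had a signal of 103.9 and 2 sites.

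Introns of pkg-2, which encodes a cGMP-dependent protein kinase, carried 3 distal peaks. Their signals were 2426 at IV:8527778 (1184 in replicate 1 and 1236 in replicate 2), 2201 at IV:8530837 (1037 and 1176) and 858.6 at IV:8528572 (380.9 and 485.6), and each held the core word. Among the promoter windows of the pkg-2 starts there was 1 summit, with a signal of 437.0. It lay within the gene, 14287 bp from the first annotated start, in the window of an internal start at 15014 bp. No summit lay in the windows of the earlier starts. Downstream of gcy-3, a receptor-type guanylate cyclase gene, 4 distal summits included signals of 1882 at II:9501115 (882.8 in replicate 1 and 1006 in replicate 2) and 1252 at II:9502150. The gene had no promoter summit.

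Genes of other kinds were nearest to the rest of the strongest peaks, some of them with a second, weaker distal peak. The peak nearest to irld-18 (2418, with 1074 in replicate 1 and 1343 in replicate 2) lay 13446 bp upstream of it and 344 bp from a piRNA start. The peak nearest to T23E1.1 (1763, with 764.7 in replicate 1 and 1023 in replicate 2) lay between convergent genes. A peak 5890 bp upstream of sca-1, the gene of the sarcoplasmic and endoplasmic reticulum calcium pump, had a signal of 1407 (646.9 in replicate 1 and 766.6 in replicate 2), and a second nearest to the same gene had 597.6. A peak between F13D11.3 and hbl-1, 7334 bp upstream of F13D11.3, had 1324 (559.1 and 771.7). The intron of Y67D8A.2 had one of 1225, and the summit nearest to F58H10.1 one of 1145.

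Exonic members were few. The strongest lay in an exon of itr-1, the inositol trisphosphate receptor that paces the intestinal defecation cycle, 8134 bp from its nearest start, with a signal of 564.7 (216.3 in replicate 1 and 349.3 in replicate 2) and 2 core words. The next lay in an exon of pks-1, a polyketide synthase gene, with 482.5 (199.1 and 281.3) and none. The other 6 exonic summits ranged from 75.2 to 399.8.

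**Figure D4:**
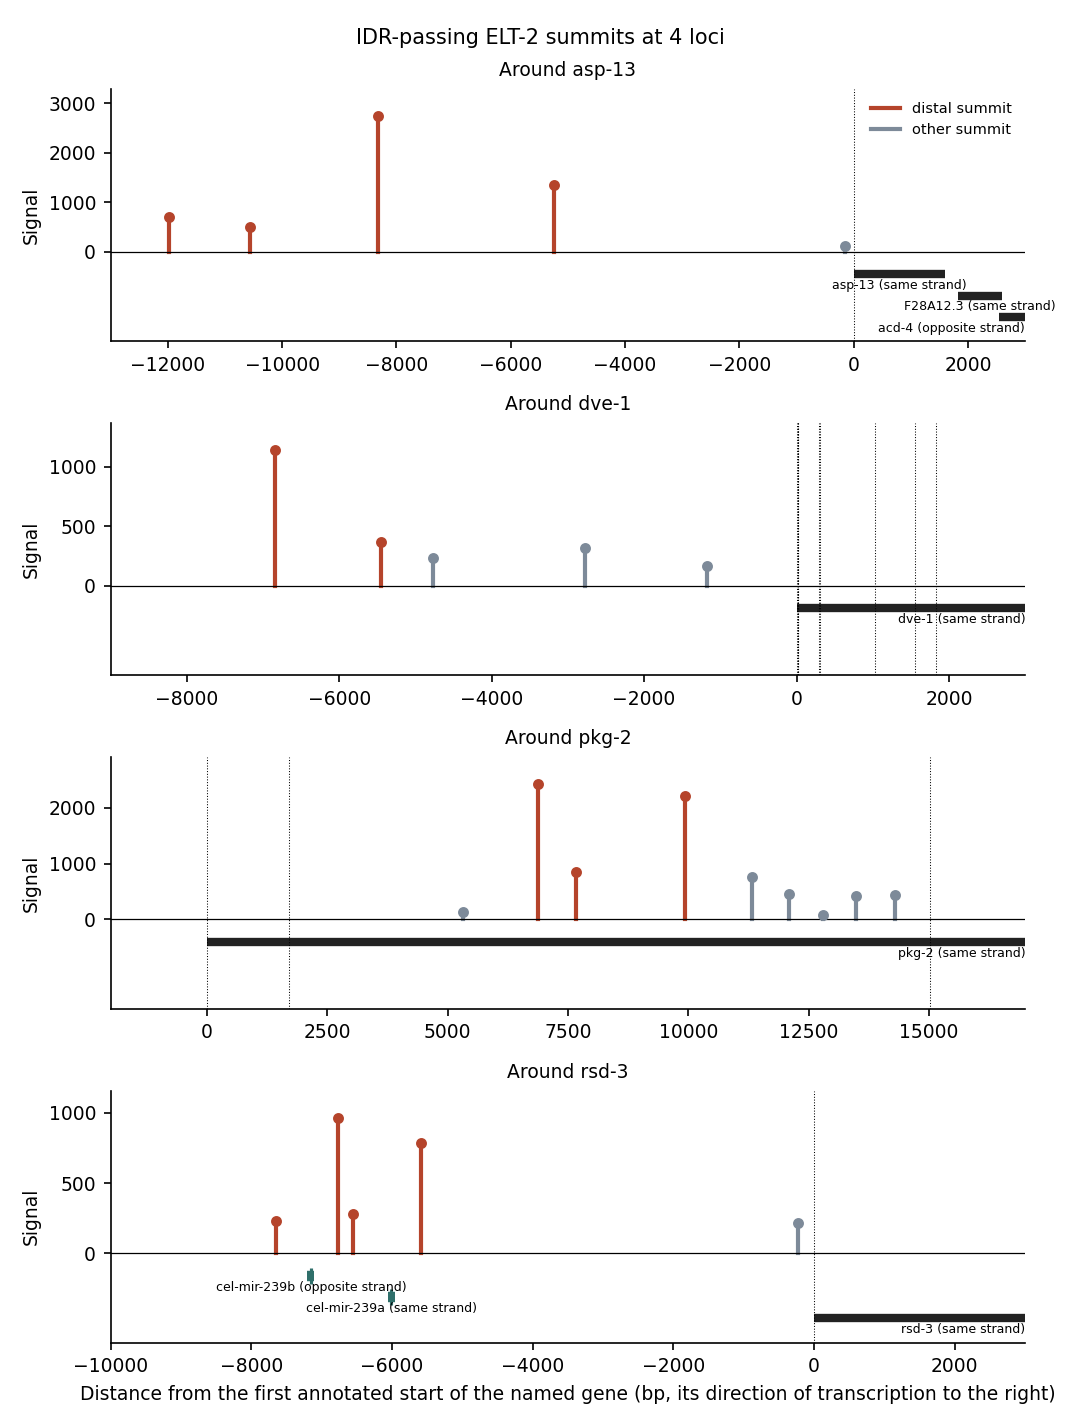
Signal of every IDR-passing ELT-2 summit (vertical, authors' peak units) against distance in bp from the first annotated start of asp-13, dve-1, pkg-2 and rsd-3, with distal summits in red, other summits in grey, coding genes as black bars, miRNA genes as green marks and further starts of the named gene as dotted lines. At asp-13 and dve-1 the highest points are 8315 and 6850 bp upstream, at pkg-2 they lie within the gene, and at rsd-3 4 distal points surround mir-239a and mir-239b.

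The 340 summits had 236 nearest coding genes, and 83 of these (35.2%, interval 29.1 to 41.6%) also had a summit in their promoter window, where the background over all coding genes was 26.7%. Genes that are nearest to some base beyond 5000 bp but to no distal summit had one in 22.6% of 2912 cases, 12.6 points lower (interval of the difference 6.59 to 19.1). In 36 of the 83 genes the strongest distal peak was stronger than the strongest promoter peak, asp-13 and bcat-1 (319.8 in the promoter) among them. The reverse held at egl-27, the gene of a chromatin and transcription regulator, named after its values were seen, with 602.1 at its strongest distal peak and 2163 in the promoter.

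Part of the distal summits lay close together, at a share near that of other summits. Distal sequence held fewer summits per Mb (38.6, against 96.7 elsewhere), and the shares below were not adjusted for density. Of the 340, 117 (34.4%, interval 29.4 to 39.7%) lay within 1000 bp of another distal summit. Counting any summit as neighbour, the number was 134 (39.4%, interval 34.2 to 44.8%), against 34.1% of other summits and a background of 34.3%. There were 46 pairs, 7 triples and 1 group of 4. Of the members, 60 overlapped another distal peak and 56 had their neighbour within 250 bp, so some neighbours share one stretch of enrichment. By gene, 169 genes were nearest to 1 distal summit, 42 to 2, 15 to 3, 8 to 4 and 2 to 5.

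The genes with 5 were ppfr-1, which encodes a regulatory subunit of a protein phosphatase, and mdl-1, which encodes a Mad-family partner of Max. All 5 ppfr-1 members lay in its introns with signals of 1146, 554.7, 315.1, 204.7 and 201.5, and only the last held TGATAA. The first of them lay 17 bp from the start of a non-coding RNA, in a window 59.7% repeat-masked. The mdl-1 members lay in introns of the neighbouring gene abts-4, with signals from 118.9 to 724.7.

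Starts of non-coding RNAs and pseudogenes lay near many distal summits. Within 1000 bp of such a start were 156 of 340 (45.9%, interval 40.5 to 51.3%), where the background over all nuclear summits was 26.1%. The share was 25.3% of other summits, 20.5 points lower (interval of the difference 15.2 to 25.9), and 27.7% of distal bases. Within 200 bp the count was 83 (24.4%), with a background of 13.6%, 13.1% of other summits and 12.2% of distal bases.

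By class, genes that the annotation calls ncRNA had a start within 200 bp of 53 distal summits (15.6%), with a background of 8.8%, 8.54% of other summits and 2.92% of distal bases. For tRNAs the count within 200 bp was 18 (5.29%), with a background of 3.37%, 3.29% of other summits and 0.251% of distal bases. For snoRNAs it was 9 (2.65%), with a background of 1.15%, 1.10% of other summits and 0.129% of distal bases. For piRNAs within 1000 bp it was 30 (8.82%, 27 of them on IV), with a background of 4.01% and 3.82% of other summits. That share was below the 11.4% of distal bases so placed. No distal summit lay within 1000 bp of an snRNA or rRNA start (interval 0 to 1.08% for each). Such places were rare, with 0.588% of other summits and 0.206% of distal bases for snRNAs. For rRNAs they were 0% of other summits and 0.235% of distal bases, so the absence is no trait of distal summits.

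**Figure D5:**
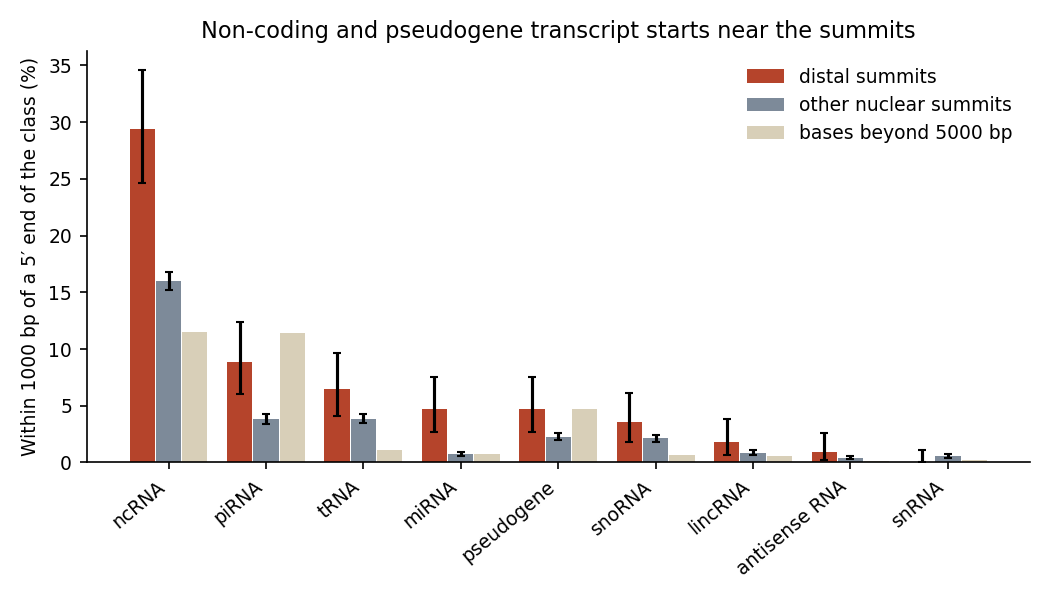
Share of distal summits (red), other nuclear summits (grey) and bases beyond 5000 bp (beige) within 1000 bp of a transcript 5′ end of each non-coding or pseudogene class, in %, with 95% exact intervals on the summits. The distal share for the ncRNA class is 29.4%, against 11.5% of distal bases, and for piRNA it is 8.82%, against 3.82 and 11.4%.

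The core word was rarer at the distal summits closest to these starts as a whole, though not in every class. It was at 33 of the 83 distal summits within 200 bp of a non-coding or pseudogene start (39.8%) and at 117 of the 184 with none within 1000 bp (63.6%), a difference of −23.8 points (interval −35.7 to −10.9). The same split in other summits gave 36.8 and 55.7%. Beside tRNAs it was at 5 of 18 (27.8%), with a median signal of 110 and a median GC content of 46.8%. Beside snoRNAs it was at 1 of 9. The piRNA class went the other way, with the word at 8 of 9 distal summits within 200 bp of such a start (88.9%, interval 51.8 to 99.7%). The strongest tRNA-side summit lay in an intron of him-4, the hemicentin gene of the extracellular matrix, 38 bp from the tRNA start, with a signal of 377.8 (163.1 in replicate 1 and 215.6 in replicate 2) and no core word. The windows of the 83 had a median GC content of 44.3%, against 38.8% for the 184, and the part of base composition in the difference was not tested.

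MicroRNA genes lay near a larger share of distal than of other summits. A miRNA start lay within 1000 bp of 16 distal summits (4.71%, interval 2.71 to 7.53%), where the background over all nuclear summits was 0.871%. The share was 0.724% of other summits, 3.98 points lower (interval 2.18 to 6.79), and 0.718% of distal bases. Of the 16, 10 were upstream of the nearest miRNA start, and 12 different miRNA genes were nearest. Of 42 annotated miRNA genes that themselves lie beyond 5000 bp, 16 (38.1%, interval 23.6 to 54.4%) had a summit within 1000 bp, against 57 of 219 nearer to coding starts (26.03%), and the interval of this difference included 0 (−2.42 to 28.1 points). The miRNA members below were named after their values were seen.

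The strongest were at mir-239a and mir-239b, a pair of closely related miRNA genes between Y102F5A.1 and rsd-3 on X. The group of 4 distal summits there spanned 2067 bp and had signals of 963.8 (419.3 in replicate 1 and 554.8 in replicate 2), 786.8 (400.9 and 390.0), 283.6 (146.0 and 121.0) and 228.0 (105.4 and 125.2). The first lay 342 bp upstream of mir-239b and 4 bp from the start of another non-coding RNA. It and the second held 1 core word each, and the weaker members none.

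Within a long intron of gcn-1, a translation regulator, 2 summits stood 352 and 144 bp upstream of mir-229, which lies in a cluster with mir-64, mir-65 and mir-66. Their signals were 597.0 (257.2 in replicate 1 and 344.6 in replicate 2) and 198.7 (48.6 and 92.9). They were 20155 and 20363 bp from the nearest coding start and held no core word. The summit 244 bp upstream of mir-80, a bantam-related miRNA, had a signal of 526.8 (179.1 in replicate 1 and 344.8 in replicate 2), and the one 274 bp upstream of mir-52 had 350.2 (148.2 and 196.0). Weaker ones stood 191 bp upstream of mir-238 (205.6), 209 bp upstream of mir-71 (201.5), a miRNA known for its part in lifespan, and 435 bp upstream of mir-241 (138.6), a let-7 relative in larval timing. Of the 16 members, 10 had no TGATAA and the median GC content was 47.3%.

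Genes of known function were compared by 7 lists with 260 genes matched in the annotation, counting a gene when it was nearest to or hosted a distal summit. The background was 246 of 19973 coding genes, or 1.23%. Only 3148 coding genes were nearest to any base beyond 5000 bp, so most genes could count only by hosting a distal summit. The lists were not matched to the background for gene spacing, so differences between them and it cannot be read apart from spacing. Each list was a selection, so its count and its strongest member hold for the listed genes only. Genes in no list, such as tol-1, ttx-1 and alr-1, were also nearest to distal summits (strongest signals 330.5, 490.7 and 429.5). In a list of genes of intestinal function, 1 of 48 counted (itr-1), while 40 of 48 (83.3%) had a summit in their promoter window. The background for promoter summits, here and in the lists below, was 26.7% of all coding genes. In a list of innate immunity and stress defence genes, 0 of 30 counted, which allows a share of up to 10% by a limit of 3 counts (exact upper limit 11.6%), and 17 had a promoter summit.

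The endoderm and intestinal factor list had 2 of 30 (dve-1 and daf-16), with 18 of 30 at promoters. The gene dve-1, whose product acts in the intestinal response to mitochondrial stress, had distal peaks 6850 bp upstream with a signal of 1140 (500.5 in replicate 1 and 636.7 in replicate 2) and 5459 bp upstream with 365.0 (153.3 and 215.7). They held 2 and 3 core words. There was no summit in its promoter window, and 3 nearer summits upstream of the gene, also in the map of the loci, had signals of 166.7, 315.2 and 232.3. The intronic peak of daf-16, the FOXO factor of insulin signalling, was weaker at 181.9 (46.9 in replicate 1 and 133.4 in replicate 2), had no core word and lay 2 bp from a non-coding RNA start.

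The list of homeodomain and patterning factors had 4 of 50, with 9 of 50 at promoters (18%, below the 26.7% of all coding genes). The strongest of these, with 324.6 (134.6 in replicate 1 and 185.8 in replicate 2), lay 10076 bp upstream of nob-1, a posterior Hox gene, and a second lay 199 bp beyond it with 193.5. The others were unc-62, of a Meis-type homeodomain protein (306.3, with 129.2 in replicate 1 and 176.5 in replicate 2), hbl-1, a hunchback-like timing gene (141.9), and lin-14, another timing gene (125.3). The remaining lists had 1 gene each: daf-2, the insulin receptor gene, of 35 signalling genes (314.9, with 117.9 in replicate 1 and 193.0 in replicate 2), sax-3, the Robo receptor gene, of 40 neuronal genes (203.4), and him-4 of 27 matrix and muscle genes (377.8). With counts of 0 to 4 a list, the intervals overlap widely, the highest being 8% for patterning factors (interval 2.22 to 19.2%).

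The farthest summits were the pair in the outermost part of X, 35572 and 35370 bp from Y73B3A.1. Their signals were 285.0 (102.5 in replicate 1 and 180.2 in replicate 2) with 2 core words, and 76.0 (30.9 and 47.3) with none in a window 92.0% repeat-masked. They lie 202 bp apart. Next came the gcn-1 summits described with mir-229.

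Below the IDR threshold the distal share was higher and the core word rarer. The IDR-passing list was the strongest 9198 of the 30000 peaks called on both replicates together. Ranks from 9199 on held 988 distal among 20800 nuclear summits (4.75%, interval 4.46 to 5.05%), and 19.7% of those had TGATAA, against 21.3% of the other summits there. Within the IDR-passing list the core word was at 49.5% of the 105 distal summits on X, against 61.3% of those on the autosomes. The difference was −11.8 points (interval −22.9 to −0.394). The same split was not made for other nuclear summits, so whether the difference is particular to distal summits was not tested.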

How the data were processed

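ELT-2-GFP ChIP-seq peaks of 2 biological replicates in 1 group were used as deposited. The authors called peaks on alignments to ce11 against a control library, per the deposited text files, for each replicate and for both together, and filtered the latter by IDR. Which caller, aligner and IDR cutoff were used is not stated there. The deposited signal is the authors' value per peak, on a scale of its own in each list. The deposited −log10 q-value was read but no result rests on it, and the deposited summit offset gave the summit. Lists on ce10 were not used.

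Coding starts, classes and non-coding genes came from Ensembl release 115 (WBcel235), and sequence and repeat masking from the RefSeq genome of that assembly. Motifs were searched on both strands within 100 bp of the summit. Shares have 95% Clopper-Pearson intervals, differences Newcombe or paired intervals. Peaks are not replicates, so no p-value was computed. Python 3.11.15, numpy 2.4.6, pandas 2.3.3 and scipy 1.17.1 were used, and the steps were tested on simulated data. The members, gene lists and named genes were chosen with earlier results of these data known. Genes were named by fixed rule: the 15 strongest distal summits, the strongest per chromosome, the 2 strongest per class, the 3 farthest, 3 on either side of 5000 bp, and the strongest per list. Other names, which complete small counts or illustrate a group, were chosen after their values were seen. Alternatives were thresholds, windows, motifs, matching, start sets and single replicates.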

Additional observations from a re-analysis of the deposited data

How the results depend on the processing

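Of 79 alternative values, 48 stayed within counting error, or for counts within 1.5 times, of the value reported. The signal ratio has no counting error, so its limit was 0.0184, the standard deviation between the ratios of the single replicates. The rest were as follows. Keeping peaks at or above the median signal gave 180 distal summits, TGATAA at 64.4%, a difference of −2.06 points from other summits and 48.3 from flanks, 100% matched in both replicates, 23.4% of nearest genes with a promoter summit and 17.2% with a distal neighbour. Setting the boundary at 4000 bp gave 565 summits (6.15% of nuclear summits) and a signal ratio of 1.02. At 7500 bp there were 99 (1.08%), with a ratio of 1.03, 90.9% matched and 12.1% intronic. Using 5′ ends of every biotype left 74 (0.806%), with a ratio of 1.25, 50 points over flanks, 47.4% of nearest genes with a promoter summit and 25.7% with a neighbour. TGATAA was found in 44.4% within 50 bp and 68.5% within 200 bp, and the 4 GATA words in 74.4%. Matching within 50 bp gave 85.9%, within 200 bp 98.2% and by overlap 98.8%. Non-coding starts within 500 bp gave 37.9%, a promoter window of 500 to 200 bp 25.4%, and neighbours within 2000 bp 47.6%. Single replicate lists were also used in place of the IDR-passing one, each cut to its strongest 9198 peaks. The number then ran from 330 to 338 and the signal ratio from 1.08 to 1.10. That cut equals the length of the IDR-passing list, so it limits the number. Uncut, the lists held 1231 (4.39%, replicate 1) and 1299 (4.33%, replicate 2) distal summits, with median signals below those of other summits. No paired analysis was possible because the study has 1 group. The unknown depth, the 2 replicates and the annotation of starts limit all values: a distal summit is distal only to the starts annotated here.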
